A study of Mus musculus with 8 samples.

Results

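The BCL2 family decides whether a stressed or cytokine-deprived T cell lives or dies at the mitochondrion, and 10 of its genes are described here across 4 populations of Foxp3-expressing CD4 T cells. The genes were Bcl2, Bcl2l1, Mcl1, Bcl2l11, Bax, Bak1, Bad, Bid, Bbc3 and Pmaip1, chosen by name, with earlier results of these data known. All 10 had a row among the 24108 named genes of the count table, and all 10 were among the 13989 genes with enough counts to be tested.

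BCL2, BCL-XL (encoded by Bcl2l1) and MCL1 are the survival proteins, which hold the pore-forming effectors BAX and BAK in check. The BH3-only proteins BIM (Bcl2l11), BID, BAD, PUMA (Bbc3) and NOXA (Pmaip1) carry stress signals and release or activate those effectors, after which cytochrome c leaves the mitochondrion and caspases are activated. In regulatory T (Treg) cells, the Foxp3-expressing T cells that restrain immune responses, MCL1 is known to be required for survival and BIM is known to limit their number.

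Polyadenylated RNA was sequenced from cells of the mesenteric lymph node, the node that drains the gut. The mice of all 8 libraries had 1 genotype, Foxp3DTR-GFP/Thy1.1CD4CreER/wtR26lsl-tdTomato/wt: a Foxp3 allele with the diphtheria toxin receptor and GFP, a Foxp3 allele with Thy1.1, a tamoxifen-dependent Cre under CD4, and a tdTomato gene that Cre switches on. They were raised with AVNM, an abbreviation that the labels do not spell out, on a diet defined in amino acids, received tamoxifen and diphtheria toxin over about 3 weeks, and were then given chow and the fecal microbiota of specific-pathogen-free mice. CD4 T cells were sorted 12 days after that colonization into 4 populations of 2 libraries each: unmarked (tdTomato-negative) and marked (tdTomato-positive) cells with the Thy1.1 reporter, and unmarked and marked cells with the GFP reporter. The mark is meant to fall on CD4 T cells outside the thymus that lack Foxp3, so that marked cells with a reporter would have gained Foxp3 afterwards. There are limits to the model. The toxin receptor is named with the GFP allele only, so Thy1.1 cells that already expressed Foxp3 may have been spared and marked. Nothing in the labels tells if the Thy1.1 allele has an effect other than as a reporter, if both reporters' cells came from shared animals, or how old the mice were.

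Library totals lay between 38085686 and 47908198 counts. Levels are given as CPM, the read count scaled to a common library total with TMM factors. Differences are log2 values with a standard error (SE) from edgeR's quasi-likelihood model of all 8 libraries, 2 per population, and are called at a Benjamini-Hochberg adjusted p under 0.05 over the 13989 genes. Foxp3 was present at 126 to 201 CPM in the 8 libraries, and all 6 Treg and T cell markers were detected in each. Their levels were not equal: Foxp3 was called lower in marked GFP than in marked Thy1.1 cells (-0.48 ± 0.12, edgeR adjusted p = 0.0314). Ctla4 (1.39 ± 0.15, adjusted p = 0.00193) and Cd4 (0.56 ± 0.09, adjusted p = 0.00742) were called higher, and the other 3 were not called. Markers of other cells were low but uneven: the 6 myeloid markers summed to 35.5 CPM in unmarked GFP library 3 and 30.6 CPM in marked GFP library 3, against 1.33 to 10.9 CPM in the other libraries. Lyz2 made 20.4 and 21.9 CPM of these 2 sums. In marked GFP library 3 Itgam followed at 6.27 CPM, Fcer1g and Tyrobp stood at 1.47 and 0.925 CPM, and Csf1r and Cd14 had 0 counts. Class II markers summed to 208 CPM in unmarked GFP library 3 and to 32.9 to 93 CPM elsewhere. Of that 208 CPM Cd74 made 174 CPM and H2-Aa 34 CPM, and H2-Ab1 and H2-Eb1 had 0 counts in all 8 libraries. In the other libraries Cd74 lay at 32.9 to 92.5 CPM and H2-Aa at 0 to 1.31 CPM. Unmarked GFP library 3 also held 36.8 CPM of Siglech, which marks plasmacytoid dendritic cells and was at 0 to 1.19 CPM in the others. CD8 and NK markers summed to 129 CPM in marked GFP library 3, of which Nkg7 made 116 CPM, and to 31.8 to 62.5 CPM elsewhere. The rest of that list was not raised there: Cd8b1 was at 6.68 CPM, its lowest value of the 8 libraries, and Cd8a at 0.542 CPM. Klrb1c, at 5.53 CPM, lay within its range elsewhere, and Ncr1 had 0 counts. In bulk RNA, fewer cells that carry a transcript and less transcript per cell cannot be told apart.

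Bcl2 and Mcl1 were the members called lower in marked than in unmarked GFP cells, Mcl1 less firmly, and the DNA just before their start sites is shown so that the 2 promoters can be set side by side. Both sequences are RefSeq's, in build GRCm38.p6, 5′ to 3′ on the strand of the gene, and end 1 base before the annotated start site. Capitals mark matches to the SP/KLF box (GGGCGG) and to the core of the cyclic AMP response element (TGACG) on either strand. The Bcl2 sequence is chr1:106714291-106714540 on the minus strand, and the Mcl1 sequence is chr3:95658471-95658720 on the plus strand.
Bcl2: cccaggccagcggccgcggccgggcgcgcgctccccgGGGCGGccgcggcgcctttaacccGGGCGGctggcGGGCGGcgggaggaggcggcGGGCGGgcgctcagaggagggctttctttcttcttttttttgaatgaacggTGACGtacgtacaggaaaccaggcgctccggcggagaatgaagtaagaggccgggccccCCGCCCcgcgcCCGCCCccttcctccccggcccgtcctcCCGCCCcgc
Mcl1: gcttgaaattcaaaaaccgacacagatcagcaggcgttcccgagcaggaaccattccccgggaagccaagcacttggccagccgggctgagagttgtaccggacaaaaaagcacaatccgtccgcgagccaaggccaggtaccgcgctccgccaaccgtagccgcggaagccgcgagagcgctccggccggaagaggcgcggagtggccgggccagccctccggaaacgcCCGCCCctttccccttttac

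The windows searched ran 50 bases further, to a length of 300. Bcl2 had 7 matches to the SP/KLF box and Mcl1 had 1, a motif found in 35.7% of 32851 promoter windows of that length. Each had 1 match to the TGACG core, which 20.8% of windows hold; in Mcl1 it lay 16 bases after the start site, beyond the sequence printed. Other motifs were not matched in either window. These were the TATAAA box, present in 13.6% of all windows, the CCAAT box, in 37.4%, and the E-box CACGTG, in 7.15%. The FOXO motif GTAAACA is held by 3.65% of windows, and the STAT motif TTCNNNGAA by 8.3%. The AP-1 motif TGANTCA is held by 7.81% of windows, and the E2F core TTCCCGC by 4.6%. The GC content of the windows was 76% for Bcl2 and 65.7% for Mcl1, beside a median of 52.7% over all windows.

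Bcl2, which encodes the survival protein that gave the family its name, was low in marked GFP cells. It stood at 938 and 1144 CPM in unmarked Thy1.1 cells, 670 and 837 CPM in marked Thy1.1 cells, 805 and 1101 CPM in unmarked GFP cells, and 127 and 137 CPM in marked GFP cells. Both marked GFP libraries thus lay below each of the other 6, and the remaining populations overlapped in part. The marked GFP values rest on 5626 and 5095 reads.

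Mcl1, the gene of a short-lived survival protein, varied over a narrower range. Its levels were 818 and 815 CPM in unmarked Thy1.1 cells, 775 and 707 CPM in marked Thy1.1 cells, 784 and 915 CPM in unmarked GFP cells, and 588 and 636 CPM in marked GFP cells. The marked GFP libraries were again the lowest pair, without overlap. Bcl2l1, which encodes BCL-XL, spanned 64.7 to 94.8 CPM over all 8 libraries. It stood at 69.9 and 64.7 CPM in marked Thy1.1 cells, the lowest pair, and at 79.3 and 94.8 CPM in marked GFP cells, which overlapped the 82.5 and 90.7 CPM of unmarked GFP cells.

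**Figure D1:**
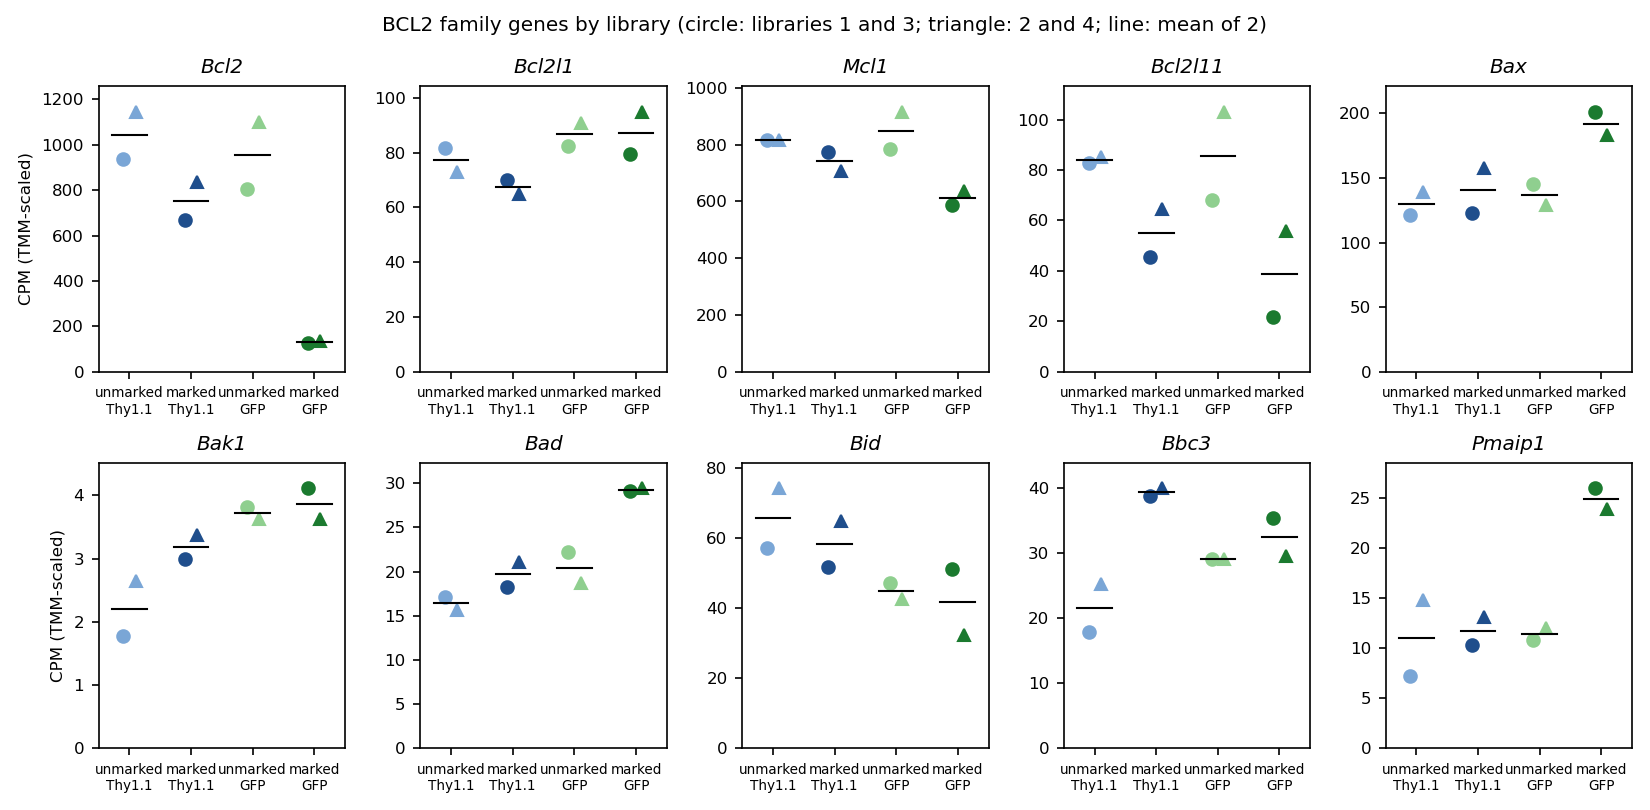
Level of each of the 10 genes in CPM (vertical axes start at 0 and differ between genes) in the 4 populations; each point is 1 library and each bar is the mean of 2. Bcl2 lies at 127 and 137 CPM in marked GFP cells and at 670 CPM or more in the other 6 libraries, whereas Bax, Bad and Pmaip1 have their highest values in marked GFP cells.

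Among the BH3-only genes, Bcl2l11, whose product BIM binds every major survival protein, had the widest gap between 2 libraries of 1 population. It stood at 82.6 and 85.1 CPM in unmarked Thy1.1 cells, 45.6 and 64.4 CPM in marked Thy1.1 cells, 68.1 and 103 CPM in unmarked GFP cells, and 21.9 and 55.9 CPM in marked GFP cells. The 2 marked GFP libraries differed more than 2-fold from each other, and the higher of them lay within the range of marked Thy1.1 cells.

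Pmaip1 encodes NOXA, which chiefly neutralises MCL1. It stood at 7.22 and 14.8 CPM in unmarked Thy1.1 cells, 10.3 and 13.1 CPM in marked Thy1.1 cells, 10.8 and 12.0 CPM in unmarked GFP cells, and 26.0 and 23.9 CPM in marked GFP cells. Both marked GFP libraries lay above the other 6. Bad, whose product is held inactive by phosphorylation when survival signals are present, had the same order at 29.1 and 29.4 CPM in marked GFP cells and 15.7 to 22.2 CPM elsewhere.

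Bbc3 encodes PUMA, a target of p53. It stood at 17.8 and 25.2 CPM in unmarked Thy1.1 cells, 38.7 and 39.9 CPM in marked Thy1.1 cells, 29.1 and 29.0 CPM in unmarked GFP cells, and 35.3 and 29.6 CPM in marked GFP cells. Unmarked Thy1.1 cells were lowest and marked Thy1.1 cells highest, with no overlap. Bid, which links death receptors to the mitochondrion once a caspase cuts it, was 57.2 and 74.2 CPM in unmarked Thy1.1 cells and 51.7 and 65.0 CPM in marked Thy1.1 cells, against 47.3 and 42.7 CPM in unmarked and 51.1 and 32.5 CPM in marked GFP cells. Each GFP library was thus below both marked Thy1.1 libraries for this gene.

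The effector gene Bax stood at 121 and 139 CPM in unmarked Thy1.1 cells, 123 and 158 CPM in marked Thy1.1 cells, 145 and 129 CPM in unmarked GFP cells, and 201 and 183 CPM in marked GFP cells. Marked GFP cells were above the other 6 libraries. The other effector gene, Bak1, was near the bottom of the range, at 1.78 to 4.11 CPM over the 8 libraries, and its lowest pair was unmarked Thy1.1 cells at 1.78 and 2.64 CPM. The library kit does not mark strand, and exons overlap an antisense or neighbouring gene for Bcl2 (D630008O14Rik), Bax (Gm45808, same strand), Bak1 (Ggnbp1), Bad (Gpr137) and Bid (Bcl2l13), so reads in the shared bases of these 5 genes are uncertain.

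Levels of different genes can be compared per length only, for which CPM was divided by the length of all annotated exons in kilobases (RPKM). Mcl1 ranked first in every population, with a mean of 239 RPKM in unmarked Thy1.1 cells and 179 RPKM in marked GFP cells. Bcl2 ranked second in unmarked Thy1.1 cells at 114 RPKM, above Bax at 82.6 RPKM, and the 2 genes overlapped in marked Thy1.1 and unmarked GFP cells. In marked GFP cells Bcl2 was at 14.4 RPKM, beside Bbc3 at 15.3 RPKM and Bid at 11.8 RPKM, with which its libraries overlapped. Bax was then second at 122 RPKM and Bcl2l1 followed at 19 RPKM, both without overlap with the next gene. The order below them depended on the length used. With the longest transcript as the length, Bcl2 kept rank 5 in marked GFP cells. Bad moved from rank 7 to 4, Bbc3 from 4 to 6 and Bid from 6 to 7. Bak1 was last in all 4 populations, at 0.918 to 1.61 RPKM.

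The make-up of the survival transcripts followed from these levels. Bcl2 made up 28.5% and 32.9% of the summed RPKM of Bcl2, Bcl2l1 and Mcl1 in unmarked Thy1.1 cells, 23.2% and 29.3% in marked Thy1.1 cells, 26.2% and 29.5% in unmarked GFP cells, and 6.83% and 6.74% in marked GFP cells. Mcl1 made up 84.7% and 83.9% in marked GFP cells and 62.9% to 72% in the other 6 libraries. The sum of the 3 genes was 203 and 222 RPKM in marked GFP cells and 312 to 408 RPKM elsewhere. With the longest transcript as the length, the mean Bcl2 share was 7.94% in marked GFP cells and 30.1% to 35% in the other populations.

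**Figure D2:**
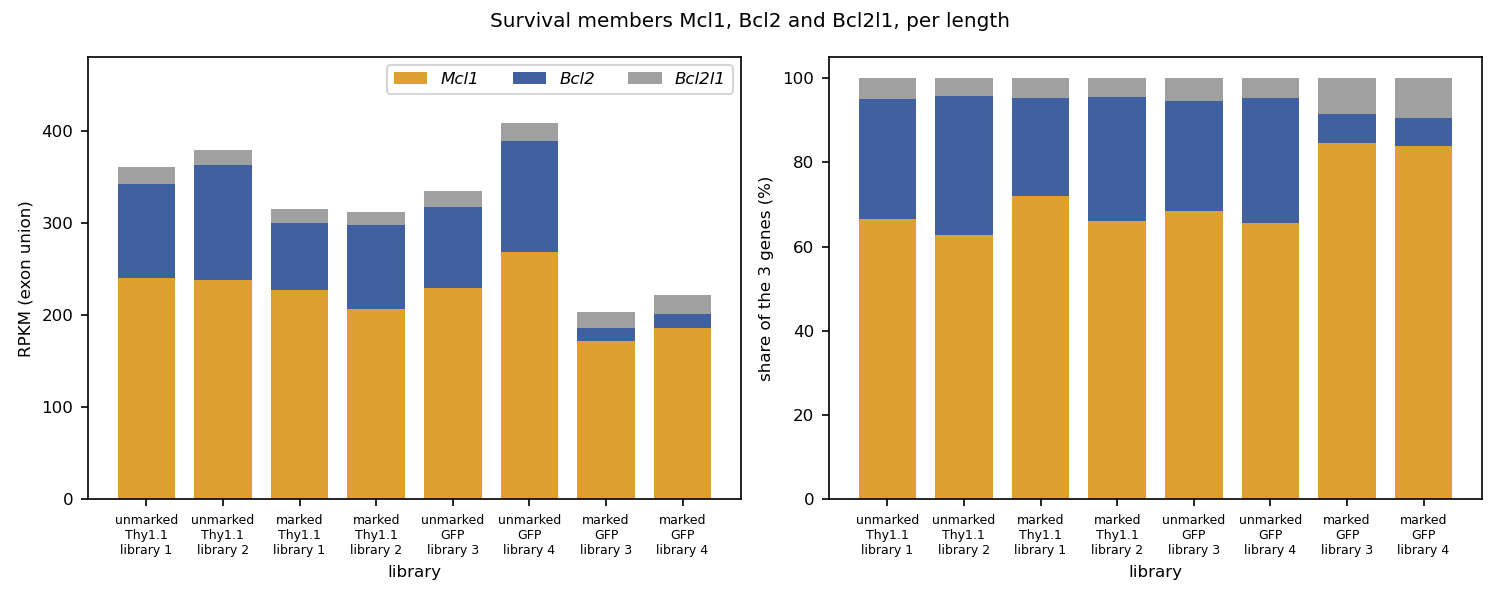
Left, RPKM of the 3 survival genes stacked for each library; right, their shares in percent of that sum. The Bcl2 share is 6.83% and 6.74% in the marked GFP libraries and 23.2% to 32.9% in the other 6.

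Ratios of 2 members inside a library do not depend on scaling between libraries and are given as a description. They are not corrected for gene length, so they can be compared between libraries but do not tell which gene had more transcripts. Bax over Bcl2, in CPM, was 1.59 and 1.34 in marked GFP cells and 0.117 to 0.188 in the other 6 libraries. Bcl2l1 over Bcl2 was 0.624 and 0.693, against 0.0638 to 0.104. Both ratios separated marked GFP cells without overlap. Bcl2l11 over Bcl2 was 0.173 and 0.409 in marked GFP cells and 0.0681 to 0.0936 elsewhere. Bcl2l11 over Mcl1, in contrast, had its lowest value of 0.0373 in marked GFP library 3, whereas marked GFP library 4 at 0.0879 lay within the range of the other 6 libraries, 0.0588 to 0.113.

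**Figure D3:**
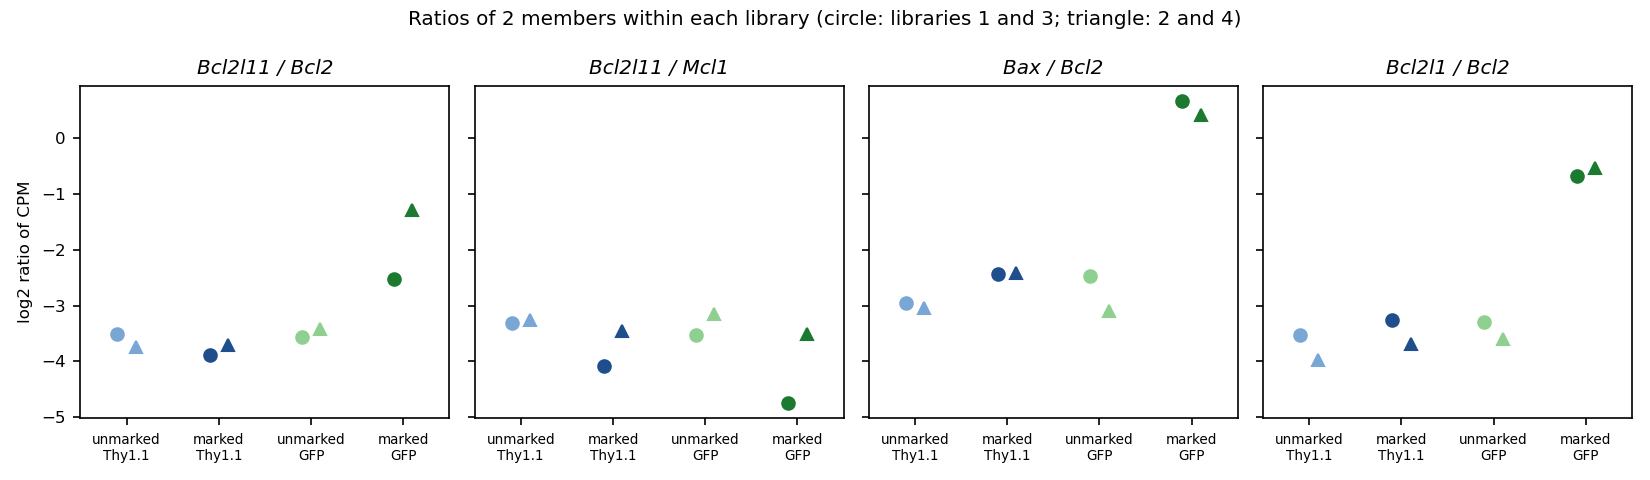
Log2 ratio of the CPM of 2 genes within each library (vertical axis, not corrected for gene length) in the 4 populations. Circles are libraries 1 and 3, triangles libraries 2 and 4. The 3 ratios over Bcl2 are highest in marked GFP cells, with Bax over Bcl2 at log2 values of 0.67 and 0.42, and Bcl2l11 over Mcl1 overlaps between populations.

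The comparison of the 2 reporters among marked cells set marked cells with GFP against those with Thy1.1. The toxin receptor is named with the GFP allele only, so the allele and exposure to the toxin cannot be told apart here. Bcl2 was lower with GFP by 5.72-fold, a log2 change of -2.51 ± 0.18 (SE, 2 libraries per population, 95% interval -2.93 to -2.10, edgeR adjusted p = 0.000674). It was the only one of the 10 members called, 0 higher and 1 lower. Over all genes 14.8% were called, 8.01% higher and 6.82% lower, so the members' count is close to the background. The median log2 change was 0 over the members and -0.01 over all genes. In the 16 alternative fits Bcl2 was called each time, with a highest edgeR adjusted p of 0.00751 when 1 library was left out.

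The other 9 members missed the adjusted threshold, though 5 of them had an unadjusted p under 0.05, as did 4181 of the 13989 genes. Pmaip1 differed by 1.09 ± 0.35 (edgeR adjusted p = 0.0755), Bax by 0.45 ± 0.15 (adjusted p = 0.0777), Bad by 0.57 ± 0.20 (adjusted p = 0.0939) and Bcl2l1 by 0.37 ± 0.14 (adjusted p = 0.11), all with higher values in GFP cells. Mcl1 differed by -0.28 ± 0.10 (adjusted p = 0.0959). Death-promoting and survival genes were thus found on both sides of 0. Calls near the threshold moved with the method. Mcl1 was called by DESeq2, with scaling by library totals, with a filter of 5 CPM in 2 libraries and without unmarked GFP library 4. Pmaip1 was called by DESeq2, limma-voom, a fit of the 2 populations alone and the fit without unmarked Thy1.1 library 1, and Bax was called by DESeq2. Bcl2l11, at -0.50 ± 0.40, depended on the marked GFP library: the value was -1.34 (edgeR adjusted p = 0.031) without library 4 and -0.03 (adjusted p = 0.977) without library 3. Bid (-0.48 ± 0.24), Bbc3 (-0.28 ± 0.21) and Bak1 (0.28 ± 0.52) had intervals that included 0, from -1.04 to 0.07, from -0.75 to 0.20 and from -0.92 to 1.48.

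Marked and unmarked GFP cells were compared to see what sets recently marked cells apart from the rest of the same reporter. This comparison shares its marked GFP libraries with the one before. Bcl2 was 7.22-fold lower in marked cells, a log2 change of -2.85 ± 0.18 (95% interval -3.28 to -2.43, edgeR adjusted p = 0.000354), and Mcl1 was 1.39-fold lower, at -0.47 ± 0.10 (interval -0.69 to -0.25, adjusted p = 0.0202). Of the 10 members 2 were called, both lower, beside 12.6% of all genes, 6.24% higher and 6.4% lower. The median log2 change was 0.03 over the members and 0.03 over all genes.

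The call for Mcl1 was less firm than that for Bcl2. Mcl1 lost it without unmarked GFP library 4 (-0.40, edgeR adjusted p = 0.0725), without marked GFP library 3 (-0.46, adjusted p = 0.0659), and in a fit of these 2 populations alone (adjusted p = 0.0881). Among the uncalled members, Pmaip1 differed by 1.13 ± 0.35 (adjusted p = 0.074), Bax by 0.48 ± 0.15 (adjusted p = 0.0675), Bad by 0.52 ± 0.20 (adjusted p = 0.128) and Bcl2l11 by -1.14 ± 0.40 (adjusted p = 0.108). Each of these 4 had an unadjusted p under 0.05, as did 4058 of all genes. Their libraries did not overlap between the 2 populations. Those of Bbc3, a member close to 0, did not overlap either, and non-overlap was not counted over all genes. DESeq2 called Bcl2l11, Bax and Pmaip1 in addition, limma-voom called Pmaip1, and the edgeR fit with library number as a replicate block called Bcl2l11 (-1.21, adjusted p = 0.0327). Without marked GFP library 4 Bcl2l11 was at -1.97 (adjusted p = 0.0132), and without marked GFP library 3 it was at -0.66 (adjusted p = 0.229). Bcl2l1 (0.01 ± 0.14, interval -0.30 to 0.32), Bid (-0.11 ± 0.24, interval -0.66 to 0.45), Bbc3 (0.16 ± 0.21, interval -0.32 to 0.64) and Bak1 (0.06 ± 0.52, interval -1.15 to 1.26) lay close to 0, and the sign for Bcl2l1 flipped with other scalings.

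**Figure D4:**
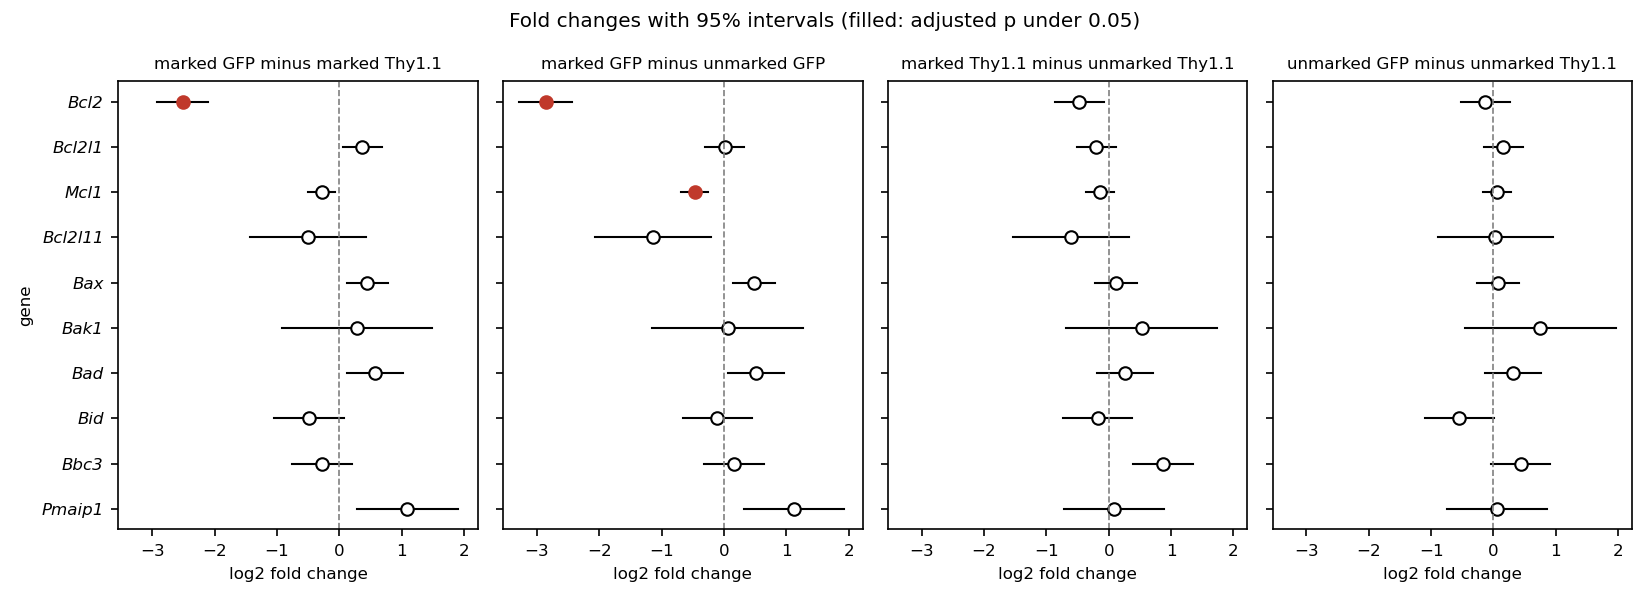
Log2 fold change of each of the 10 genes (points) with its 95% interval (bars) in the 4 pairwise comparisons of populations; filled points have an edgeR adjusted p under 0.05. Bcl2 is the one member called in both comparisons that involve marked GFP cells, at -2.51 and -2.85, and Mcl1 is called at -0.47 against unmarked GFP cells.

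Within Thy1.1 cells the mark gave no called member. None of the 10 passed, beside 0% of all genes called by edgeR, and 2 members had an unadjusted p under 0.05, as did 1063 of all genes. Bbc3 differed by 0.87 ± 0.21 (1.83-fold, unadjusted p = 0.00309, edgeR adjusted p = 0.441), with both marked libraries above both unmarked ones. DESeq2 called it (0.88, adjusted p = 0.0256), 1 of 149 genes by that tool, and limma-voom called 0 genes. Bcl2 differed by -0.47 ± 0.17 (95% interval -0.86 to -0.07, edgeR adjusted p = 0.615), also without overlap. The libraries of Bcl2l1, Mcl1, Bcl2l11, Bad and Bak1 did not overlap either, and the share of all genes that separated was not counted. The remaining 8 members lay between -0.61 for Bcl2l11 and 0.53 for Bak1. Bcl2l1 (-0.20), Mcl1 (-0.14), Bid (-0.17), Bad (0.26), Pmaip1 (0.09) and Bax (0.11) were in between, each with a 95% interval that included 0.

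Unmarked cells of the 2 reporters did not yield a called member either. The count was 0 of 10 by edgeR, DESeq2 and limma-voom, 0 had an unadjusted p under 0.05, and 0.164% of all genes were called. Bcl2 differed by -0.13 ± 0.17 (95% interval -0.52 to 0.27, edgeR adjusted p = 0.839). The members nearest to the threshold were Bid at -0.55 ± 0.24 (edgeR adjusted p = 0.43) and Bbc3 at 0.44 ± 0.21 (adjusted p = 0.47). Their libraries did not overlap, and neither did those of Bcl2l1, Bad and Bak1. How many of all genes separated in this way was not counted. The other log2 values were 0.16 for Bcl2l1, 0.06 for Mcl1, 0.03 for Bcl2l11, 0.32 for Bad, 0.06 for Pmaip1, 0.08 for Bax and 0.75 for Bak1, with intervals that included 0.

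Whether the mark goes with a different change in GFP than in Thy1.1 cells was tested directly as an interaction. For Bcl2 the log2 effect of the mark in GFP cells minus that in Thy1.1 cells was -2.39 ± 0.25 (95% interval -2.95 to -1.82, edgeR adjusted p = 0.0153), and Bcl2 was the 1 member of 10 called, where 0.443% of all genes were. This call was lost without any 1 of the 4 Thy1.1 libraries: the value was then -2.60 to -2.27 and the edgeR adjusted p was 0.0626 to 0.116, with at most 1 gene called among all tested. Bbc3 (-0.71 ± 0.29, adjusted p = 0.366), Mcl1 (-0.33 ± 0.14, adjusted p = 0.363) and Pmaip1 (1.04 ± 0.49, adjusted p = 0.424) were not called. Neither were Bcl2l1 (0.21), Bcl2l11 (-0.53), Bid (0.06), Bad (0.25), Bax (0.37) and Bak1 (-0.47). For Bbc3 the mark thus went with 0.87 in Thy1.1 and 0.16 in GFP cells, a difference that missed the adjusted threshold.

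Naive and proliferation genes were among those that differed in marked GFP cells along with Bcl2. The 6 genes of a naive T cell list, among them Ccr7, Tcf7 and Bach2, were all lower in marked GFP cells in both comparisons, and summed to 1343 and 1577 CPM there against 3015 to 5297 CPM elsewhere. In the interaction, 4 of these 6 were called lower, among them Satb1, Bach2 and Lef1. Of 12 proliferation genes, 11 rose against marked Thy1.1 and 8 against unmarked GFP cells, with sums of 1716 and 1610 CPM in marked GFP cells and 505 to 999 CPM elsewhere. The 10 handling stress genes summed to 1466 and 1390 CPM in marked GFP cells and 948 to 1246 CPM elsewhere. Of these, 2 were called against marked Thy1.1 cells (Fos and Egr1, both higher) and 1 against unmarked GFP cells (Junb, higher). These counts are close to the 14.8% and 12.6% of all genes called, and the list's median against marked Thy1.1 cells was 0.01. Egr1 (450 and 406 CPM) and Junb (497 and 506 CPM) made most of the sum in marked GFP cells, whereas Jun, at 86.8 and 55.4 CPM, was not raised there. Of 5 B cell markers 3 to 5 were above the limit of a 0 count in each library. They summed to 17.7 and 8.44 CPM in marked GFP cells, 22.4 and 18.7 CPM in unmarked GFP cells and 36.6 to 42.7 CPM in Thy1.1 cells. Of the 5, 0 were called in either comparison, and unlike Bcl2 their sum was already lower in unmarked GFP than in Thy1.1 cells. Erythroid markers reached 47.5 CPM in marked GFP library 3 against 1.73 to 5.37 CPM elsewhere, and Bcl2 was at 127 CPM in that library and at 137 CPM in its partner. The part of these states, and of the other cells whose markers were uneven, in the members' results was not tested.

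The rest of the cell death machinery was read from lists of known pathway genes. Of 15 other BCL2 family genes, 12 were tested (Bcl2l10, Bok and Hrk were not). None was called between marked cells of the 2 reporters by edgeR, with 3 at an unadjusted p under 0.05, and their median log2 change was 0.13. Against unmarked GFP cells 2 were higher in marked GFP cells: Bcl2a1b (0.87 ± 0.16, edgeR adjusted p = 0.0135) and Bcl2a1d (1.07 ± 0.21, adjusted p = 0.0181). Bcl2a1b was at 52.4 and 43.0 CPM in unmarked and at 94.1 and 80.1 CPM in marked GFP cells, and Bcl2a1d at 33.4 and 24.4 CPM and at 65.7 and 56.0 CPM. Both encode A1, a survival protein induced by NF-kB. They belong to a group of near-identical copies, so the split of reads among them, and with Bcl2a1a, is uncertain. Marked Thy1.1 cells held 88.3 and 82.5 CPM of Bcl2a1b, so its level in marked GFP cells overlapped theirs. The median over the 12 genes was 0.54 against 0.03 over all genes.

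Bik, another BH3-only gene, had 0 counts in both unmarked Thy1.1 libraries, 1.33 and 1.62 CPM in marked Thy1.1 cells, 2.64 and 1.12 CPM in unmarked GFP cells, and 8.15 and 7.07 CPM in marked GFP cells. It missed the threshold against marked Thy1.1 cells (2.36 ± 0.71, edgeR adjusted p = 0.0701) and against unmarked GFP cells (2.01 ± 0.70, adjusted p = 0.11). Bcl2l2, which encodes the survival protein BCL-W, was at 0.0677 to 2.88 CPM in all 8 libraries.

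Downstream of the mitochondrion, 5 of 14 apoptosome and caspase genes were called between marked cells of the 2 reporters, beside 14.8% of all genes. Of these, 4 were higher and 1 lower with GFP, and the median over the 14 was -0.08. Among those that rose were Dffb, which encodes the nuclease that cuts DNA in dying cells (0.86 ± 0.18, edgeR adjusted p = 0.0179), and Cycs, the gene of cytochrome c (0.56 ± 0.14, adjusted p = 0.0308). Birc2, whose product cIAP1 restrains death receptor signalling, fell by 0.92 ± 0.13 (adjusted p = 0.00445). Its levels were 96.1 and 108 CPM in marked Thy1.1 cells and 51.8 and 56.0 CPM in marked GFP cells. Against unmarked GFP cells 2 of the 14 were called, 1 higher and 1 lower, with a median of 0.01; the lower one was Birc2, which fell by 0.87 ± 0.13 (adjusted p = 0.00688). Apaf1 (0.25 ± 0.22) and Casp9 (-0.28 ± 0.30), the core of the apoptosome, were not called between marked cells.

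Of 9 death receptor genes, the 1 called in each comparison was Fas, the receptor that triggers death on binding Fas ligand. Fas stood at 35.6 and 37.3 CPM in marked GFP cells and 69.2 to 87.6 CPM in the other 6 libraries. The difference was -0.98 ± 0.12 (edgeR adjusted p = 0.00303) from marked Thy1.1 cells and -1.12 ± 0.12 (adjusted p = 0.00245) from unmarked GFP cells. The medians over the 9 genes were 0.10 and -0.16. Casp8 and Cflar, the protease and its inhibitor at the receptor, were not called (adjusted p = 0.82 and 0.0736 between marked cells).

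Of 6 genes of mitochondrial effectors and channels, Vdac3, which encodes a channel of the outer membrane, rose between marked cells (0.71 ± 0.15, edgeR adjusted p = 0.0183), and Opa1, which encodes a GTPase that shapes the inner membrane, fell by 0.60 ± 0.12 against unmarked GFP cells (adjusted p = 0.0201). The list's medians were 0.22 and 0.26. Of 6 genes acting on MCL1 protein turnover, Cdk2 was called between marked cells (0.86 ± 0.15, adjusted p = 0.00868; median 0.11) and 0 against unmarked GFP cells, where 2 had an unadjusted p under 0.05 (median 0.06). Cdk2 is best known as a kinase of the cell cycle.

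Genes that are known to act on transcription of the family formed the last list. Of 18, 4 were called between marked cells, 1 higher and 3 lower with GFP, and 5 against unmarked GFP cells, all lower, with medians of -0.13 and -0.15. Rel, an NF-kB subunit that acts on survival genes, stood at 15.2 and 13.9 CPM in marked GFP cells and 41.9 to 75.2 CPM elsewhere, a difference of -1.69 ± 0.23 (edgeR adjusted p = 0.00387) and -2.01 ± 0.23 (adjusted p = 0.0028) in the respective comparisons. Foxo3, a factor known to induce Bcl2l11, differed by -0.91 ± 0.22 (edgeR adjusted p = 0.0311) and -1.38 ± 0.22 (adjusted p = 0.00924). The more abundant Foxo1 was not called between marked cells (0.08 ± 0.08, adjusted p = 0.574). It stood at 592 and 591 CPM in marked GFP, 564 and 558 CPM in marked Thy1.1 and 752 and 671 CPM in unmarked GFP cells. Myc fell in both comparisons, by 0.78 ± 0.17 and 0.92 ± 0.17, and E2f1 rose between marked cells by 1.93 ± 0.41 (adjusted p = 0.0198). Stat5a, which carries the interleukin 2 signal, fell by 0.83 ± 0.16 against unmarked GFP cells (adjusted p = 0.0161), and so did the receptor chain Il2rb, by 0.64 ± 0.13 (adjusted p = 0.02). Trp53 was not called in either comparison (-0.16 ± 0.10 and -0.03 ± 0.10). None of the 6 lists had a gene called by edgeR within unmarked cells, within Thy1.1 cells or in the interaction. At an unadjusted p under 0.05, the inputs list had 1, 2 and 4 of 18 genes in these 3 tests, and the apoptosome and caspase list had 2, 0 and 2 of 14, beside 1662, 1063 and 1792 of all 13989 genes.

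**Figure D5:**
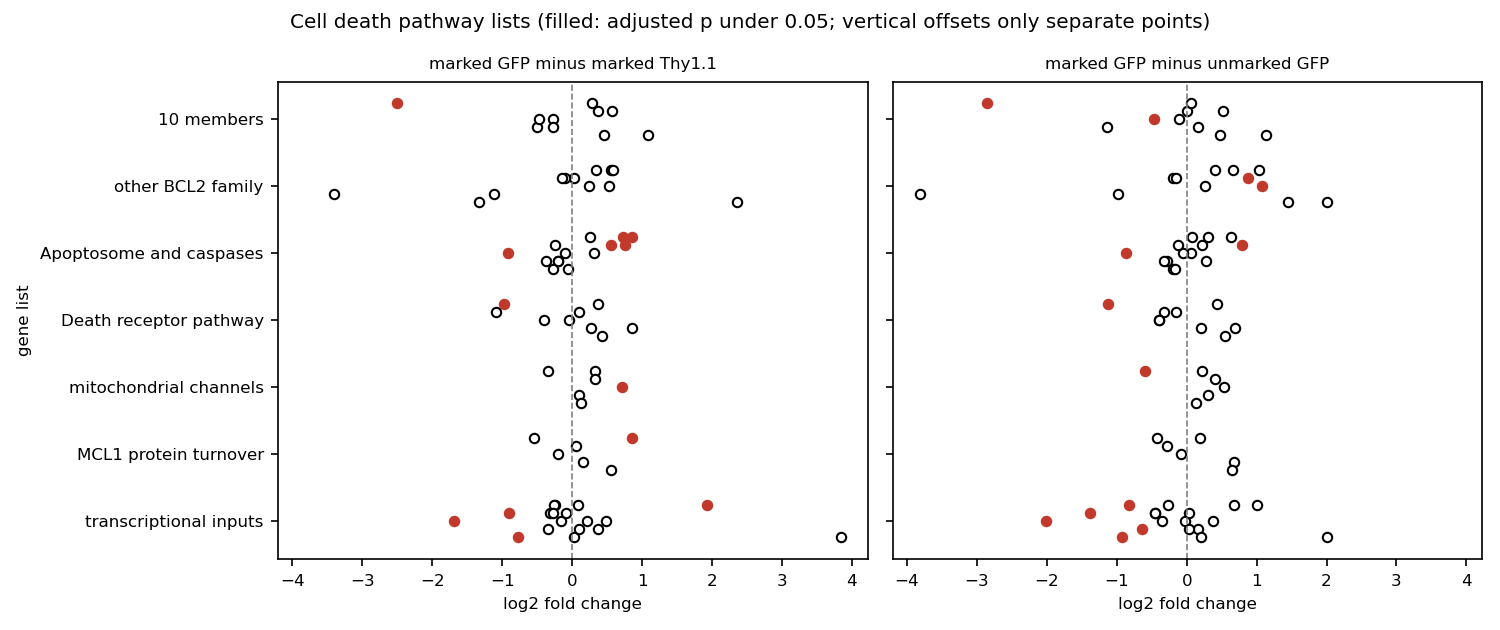
Log2 fold change (horizontal axis) of every tested gene of the 10 members and of 6 cell death lists, between marked GFP and marked Thy1.1 cells (left) and between marked and unmarked GFP cells (right); filled points have an edgeR adjusted p under 0.05. Bcl2 at -2.51 and -2.85 has the lowest called value in each panel, followed by Rel at -1.69 and -2.01, and the called genes of the apoptosome list lie on both sides of 0.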

How the data were processed

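The deposited table holds the authors' read counts for each gene, as whole numbers that were not normalized, per the file headers and values. Per the labels' protocols, the SMART-Seq v4 kit, which does not mark strand, was used to amplify polyA RNA, and paired ends of 50 bases were read. DESeq is named, without a version, in the submitters' processing notes. The aligner, counter, annotation and build were not given in the sources used here, and 8 rows without a gene name held 0.0215% to 0.0264% of a library and were left out.

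The table numbers the GFP libraries 3 and 4 where the sample titles say 1 and 2, so these columns were matched to their population only. No label ties the 2 libraries of a population to different animals, and p-values therefore reflect variation among libraries that may be technical. Libraries of 1 population correlated with r from 0.935 to 0.966 and differed by more than counting noise.

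Tests used R 4.3.3 with edgeR 4.0.16: expression filter with a minimum count of 10, TMM factors of 0.978 to 1.025, and 1 robust quasi-likelihood fit of 8 libraries with 4 residual degrees of freedom and a common biological coefficient of variation of 0.399. Standard errors were derived from the F statistic. The procedure was tested on simulated data. Alternatives were DESeq2 1.42.0, limma 3.58.1 (voom), RLE or library total scaling, no filter or a filter of 5 CPM in 2 libraries, fits of 2 populations alone, a replicate block and leaving out each library. RPKM used exon lengths of GENCODE M21. Samples with the same library number were not shown to be paired.

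The members, the gene lists and the tests were chosen with earlier results of these data known. The text names all 10 members in every comparison, at most 4 genes per list and comparison with the smallest adjusted p plus uncalled genes needed to describe a list, and for Bcl2, Mcl1 and Bcl2l11 the 5 genes of at least 5 CPM with the most similar profile. Cycs and Il2rb were named beyond this rule, after their values were seen. List counts cover every tested gene, and a few single genes are not reported here. Promoters were found for 9 of the 10 members.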

Additional observations from a re-analysis of the deposited data

Results flagged for a closer look

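Bcl2 was picked out because the effect of the tdTomato mark differed between the reporters by a test of the difference itself. The log2 effect was -2.85 within GFP cells and -0.47 within Thy1.1 cells, a difference of -2.39 (edgeR adjusted p = 0.0153). Both marked libraries lay below both unmarked ones in each reporter, from 805 and 1101 to 127 and 137 CPM in GFP cells and from 938 and 1144 to 670 and 837 CPM in Thy1.1 cells. The call was lost without any 1 of the 4 Thy1.1 libraries, at edgeR adjusted p from 0.0626 to 0.116.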

How the results depend on the processing

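For single members, 724 of 785 values under alternatives kept their direction and their side of the threshold, 7 lost a call, 17 gained one, and 37 changed sign, all of them values that were not called. Members called between marked GFP and marked Thy1.1 cells went from 1 to 4 with DESeq2 and to 2 with library totals, the stricter filter, limma-voom and the 2 populations alone, and lay at 1 to 2 when 1 library was left out. Those between marked and unmarked GFP cells went from 2 to 5 with DESeq2 and to 1 with the 2 populations alone, and lay at 1 to 3 without 1 library. Those between marked and unmarked Thy1.1 cells went from 0 to 1 with DESeq2, and those of the interaction from 1 to 0 or 1 without 1 library. The cause was not tested.

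Under the replicate block, which gave odd and even library numbers a common shift, Bcl2l11 was called between marked and unmarked GFP cells (-1.21, edgeR adjusted p = 0.0327) and changed to -0.03 between unmarked populations; no other member changed its call. The difference of odd and even libraries correlated at 0.033 to 0.056 between populations, so the numbers were not taken as pairs.

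Bcl2l1 between marked and unmarked GFP cells, at 0.01 as reported, was -0.01 with RLE factors and with DESeq2, -0.02 with library totals, -0.03 with no filter, with the stricter filter and with the 2 populations alone, and -0.003 with limma-voom. Bcl2l11 between unmarked populations was -0.0025 with limma-voom, and the Bid interaction was -0.00083 with library totals. Without 1 library, the ranges that crossed 0 between unmarked populations were -0.37 to 0.08 for Bcl2, -0.06 to 0.16 for Mcl1, -0.3 to 0.3 for Bcl2l11, -0.02 to 0.19 for Bax and -0.37 to 0.67 for Pmaip1. Between marked and unmarked GFP cells they were -0.13 to 0.09 for Bcl2l1, -0.08 to 0.14 for Bak1, -0.51 to 0.18 for Bid and -0.02 to 0.28 for Bbc3. Between marked and unmarked Thy1.1 cells they were -0.07 to 0.3 for Bax, -0.33 to 0.05 for Bid and -0.32 to 0.71 for Pmaip1, and for the Bid interaction -0.36 to 0.35.

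Counts over all genes moved by over 1.5 times in several fits. Between marked cells the count of 2074 was 3217 with DESeq2, 481 and 524 without marked Thy1.1 library 1 or 2, and between marked and unmarked GFP cells the count of 1768 was 3014 with DESeq2, 300 with the 2 populations alone and 458 without unmarked GFP library 4. Between unmarked populations the count of 23 was 622 with DESeq2 and 0 without any 1 Thy1.1 library, and the interaction count of 62 was 594 with DESeq2.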

Other observations

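Among 9659 genes of at least 5 CPM, those whose profile over the 8 libraries was most like that of Bcl2 were Tet1, Nsg2, Ift80, Treml2 and Irs2, by the root mean square difference of centred log2 CPM (0.126 to 0.231). Tet1, which encodes an enzyme that oxidises methylated cytosine, averaged 22.9, 15.2 and 20.8 CPM in unmarked Thy1.1, marked Thy1.1 and unmarked GFP cells and 3.06 CPM in marked GFP cells. Irs2, which encodes an adaptor of insulin and interleukin 4 signalling, averaged 37.1 to 44.5 CPM in those 3 populations and 7.58 CPM in marked GFP cells. The profiles nearest to Mcl1 were those of Rap1gds1, Stag1, Pign, Rbm27 and Rcc2 (0.0336 to 0.0603), with Rap1gds1 at 313 CPM in marked GFP cells and 382 to 435 CPM in the others. Those nearest to Bcl2l11 were Tgfbr3, Parp11, Acss2os, Dcaf6 and Ttc37 (0.186 to 0.234), led by Tgfbr3, which encodes a TGF-beta co-receptor, at a mean of 18.1 CPM in marked GFP cells and 29.5 to 50.8 CPM in the others. Since all 8 libraries entered the measure, it gives likeness in these libraries and no test.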
